A study of Mus musculus with 21 samples.

Results

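Mammary tumours of sedentary mice were compared between week 12 and week 18, to describe how the transcriptome of an unexercised tumour differs with time. The comparison takes 6 of the 21 samples of the series, 3 labelled biological replicates at each week, chosen by their treatment and time labels. All 6 mice carried the MMTV-PyMT genotype and the treatment Sedentary, and neither age nor sex is given beside the week. Where active mice are cited, they are the 3 MMTV-PyMT tumours per week labelled Physically active. No label says whether a tumour was whole or dissected, or which gland it came from.

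In MMTV-PyMT mice the promoter of mouse mammary tumour virus drives the polyoma virus middle T antigen in mammary epithelium, and luminal carcinomas arise in many glands and grow over weeks. A tumour taken as bulk tissue also holds fat, vessels, fibroblasts, immune cells and whatever lies against the gland, which includes the skin and body wall muscle. In bulk RNA, fewer cells of a type and less RNA per cell cannot be told apart.

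Each library held between 20838963 and 25764636 recovered reads. Luminal epithelial markers were high at both weeks, as in mammary carcinoma: Krt8, a keratin of simple epithelia, had normalized counts of 29222, 18567 and 29336 at week 12 and 19327, 30382 and 46542 at week 18. Normalized counts here are reads scaled over the 6 libraries together. Replicate 1 of week 18 stood apart. Its log2 values correlated with those of the other 5 libraries at 0.921 to 0.942, against 0.954 to 0.974 among the other 10 pairs, and it had the lowest mean level of the 6 libraries in 35 of the 47 gene lists examined. The p-values measure the spread between these samples. Week and deposited table coincide, since the tumours of each week were normalized in a table of their own, and a difference between tables cannot be told apart from a difference between weeks.

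No gene passed the threshold, an adjusted p of 0.05, in either direction among 18968 tested with limma on log2(normalized count + 1), where called genes made up 0.0%. At an unadjusted p under 0.05 there were 943 genes (4.97%), of which 696 were lower at week 18 (3.67%) and 247 higher (1.3%). edgeR on the recovered reads also called 0 genes, with 813 at an unadjusted p under 0.05 (4.29%). DESeq2 on the same reads called 154 genes lower (0.812%) and 18 higher (0.0949%), 172 in all (0.907%), and 925 genes had an unadjusted p under 0.05 (4.88%), so that the count of calls rests on the test chosen. The groups did not overlap for 888 genes that were higher at week 18 (4.68%) and 1113 that were lower (5.87%), 2001 in all (10.5%). The log2 difference was above 0 for 48.7% of the genes and below 0 for 51.3%. Values below are therefore given as values, and the words called by DESeq2 mark the genes that passed that test.

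The largest difference lay in the genes of fast skeletal muscle. Skeletal muscle fibres shorten when calcium released from the sarcoplasmic reticulum lets myosin heads pull on actin, and fast fibres run this on stored glycogen and creatine phosphate with their own set of myosin, troponin and enzyme isoforms. All 22 genes of a skeletal muscle list were lower at week 18 in every library than in any library of week 12, against 5.87% of all genes tested. Their median log2 difference, week 18 minus week 12, was -4.67, whereas the median over all genes was -0.01. DESeq2 called 14 of the 22 lower, against 0.812% of all genes, and limma called 0. With an unadjusted limma p under 0.05, 21 of the 22 were lower, against 3.67% of all genes.

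Promoters of 4 muscle genes are shown because the genes differed together. They are the 250 bases before the first listed start of each gene in RefSeq on GRCm38.p6, read 5′ to 3′ on the gene's strand. Other starts of a gene were not used. Capitals mark CAGCTG, the E-box form that myogenic factors of the MyoD family are known to bind, a palindrome and so the same on both strands. Myh4 lies at chr11:67237562-67237811 (plus strand), Mylpf at chr7:127211358-127211607 (plus), Atp2a1 at chr7:126463074-126463323 (minus) and Mstn, which holds no CAGCTG in this window, at chr1:53061390-53061639 (plus).
Myh4: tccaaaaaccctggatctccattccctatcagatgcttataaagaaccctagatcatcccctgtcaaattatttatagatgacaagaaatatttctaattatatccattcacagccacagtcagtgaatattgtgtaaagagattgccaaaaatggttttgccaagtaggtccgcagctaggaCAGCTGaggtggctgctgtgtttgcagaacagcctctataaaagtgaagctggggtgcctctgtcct
Mylpf: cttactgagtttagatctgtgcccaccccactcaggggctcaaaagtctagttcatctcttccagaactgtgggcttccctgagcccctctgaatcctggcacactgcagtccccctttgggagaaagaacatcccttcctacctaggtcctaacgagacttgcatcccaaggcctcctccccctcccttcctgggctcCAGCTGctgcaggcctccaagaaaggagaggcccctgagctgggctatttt
Atp2a1: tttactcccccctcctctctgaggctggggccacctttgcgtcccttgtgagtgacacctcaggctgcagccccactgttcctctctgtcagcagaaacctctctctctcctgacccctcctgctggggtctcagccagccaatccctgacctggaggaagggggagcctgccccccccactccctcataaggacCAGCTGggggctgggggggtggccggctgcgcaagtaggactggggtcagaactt
Mstn: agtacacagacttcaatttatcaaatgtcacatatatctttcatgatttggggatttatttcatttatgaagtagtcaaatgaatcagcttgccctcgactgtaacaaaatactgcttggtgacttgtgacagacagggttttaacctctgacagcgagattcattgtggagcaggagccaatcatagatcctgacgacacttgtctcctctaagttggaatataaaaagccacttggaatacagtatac
The hexamer begins 67, 51 and 55 bases before the starts used for Myh4, Mylpf and Atp2a1. The Mylpf window lies inside the full span of its gene, chr7:127208848-127214288. The Atp2a1 window overlaps the span of its gene, chr7:126445858-126463103. RefSeq promoters were found for 15 of the 22 genes, and 6 of them (40.0%) hold CAGCTG, as do 12.8% of 27025 promoters of the same length. Of the 112 promoters matched among the genes that DESeq2 called lower, 31.2% hold it, and of the 13 matched among those it called higher, 23.1% do. CAGCTG was not the only motif more frequent there. A MEF2 site was in 33.3% of the 15 muscle promoters, 18.8% of the 112 and 3.01% of all. A CArG box was in 13.3%, 1.79% and 1.4%. Neither was in any of the 13. The Myh4 window holds 1 MEF2 site and 1 CArG box, not marked above. Matches are a description of these letters and show no binding.

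Genes of the contractile filaments were high at week 12 and low at week 18. Among the muscle genes given here and below, Ttn, Actn3, Tnnt3, Pvalb and Ckm were chosen after their values were seen. Myh4, the fast IIb myosin heavy chain, had normalized counts of 40372, 14812 and 28654 in replicates 1 to 3 at week 12 and of 120.3, 2033 and 1659.5 at week 18. The highest week 18 value was below the lowest week 12 value, and replicate 1 of week 18 was the lowest library. The means were 27946 ± 12795 and 1271 ± 1014 (SD, n = 3 each), a log2 difference of -5.12 with a standard error of 1.18 (limma adjusted p = 0.57, DESeq2 adjusted p = 2.47e-05). Acta1, skeletal alpha actin, had 24543, 12074 and 18409 at week 12 and 70.5, 3102 and 1351 at week 18, again without overlap, and was not called by DESeq2 (adjusted p = 0.208). Titin, the giant spring of the sarcomere encoded by Ttn, had 10484, 4367 and 7324 at week 12 and 56.4, 912 and 489 at week 18. Mylpf, the fast regulatory light chain, had 4467, 2718 and 2906 against 31, 352 and 191, and its log2 difference was -4.66 with a standard error of 0.91. Actn3, the fast-fibre alpha actinin, and Tnnt3, fast troponin T, had log2 differences of -4.84 and -4.79 and were also without overlap.

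Genes of the machinery that couples excitation to calcium release were also lower at week 18 without overlap. Atp2a1 encodes the SERCA1 pump that returns calcium to the reticulum, and its normalized counts were 29463, 11294 and 20852 at week 12 and 92.1, 2723 and 1358 at week 18 (DESeq2 adjusted p = 0.0684). Ryr1, the calcium release channel, had 4261, 1697 and 2921 at week 12 and 43.2, 355 and 218 at week 18. Casq1, the calcium store protein calsequestrin, had 1843, 933 and 1325 against 15, 177 and 74.3. DESeq2 called Ryr1 and Casq1 lower (adjusted p = 9.22e-06 and 2.66e-05). Pvalb, the cytosolic calcium buffer parvalbumin, was lower by a log2 difference of -4.91. Jph1, a junctophilin that holds the reticulum against the surface membrane, had a smaller difference, with 345, 214 and 319 at week 12 and 79.9, 98.6 and 104 at week 18. Slc8a3, a sodium-calcium exchanger, and Jsrp1, a protein of the junctional reticulum, had log2 differences of -2.79 and -3.95, both without overlap.

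Fuel enzymes of fast muscle were lower too. Ckm, muscle creatine kinase, had 12480.2, 6048 and 8942 at week 12 and 54.5, 1277 and 577 at week 18 (DESeq2 adjusted p = 0.000902). Ampd1, the AMP deaminase of muscle, had 714, 394 and 558 at week 12 and 6.58, 41.4 and 32.8 at week 18 (DESeq2 adjusted p = 4.31e-10). Beside the fixed rule for named genes, Pygm, Eno3, Pgam2, Pfkm and Slc2a4 were chosen after their values were seen. Pygm, muscle glycogen phosphorylase, Eno3, beta enolase, and Pgam2, the muscle phosphoglycerate mutase, had log2 differences of -4.12, -3.79 and -4.12. Pfkm, a phosphofructokinase that other tissues also use, had 3554, 2435 and 3079 at week 12 and 1687, 1761 and 1469 at week 18. Slc2a4, the insulin-responsive glucose transporter of muscle and fat, had means of 566 ± 86.8 and 277 ± 44.2 (SD, n = 3 each), without overlap. Both were called by DESeq2 with the much smaller log2 differences of -0.87 and -1.03.

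Slow-fibre genes were too low at week 12 to show whether they shared the pattern. Myh7, Tnnt1, Tnni1, Tnnc1, Myl2 and Myl3, the slow myosin heavy chain, troponins and light chains, were looked at after the fast genes had been seen. All 6 were near the lower limit of measurement at week 12, between 0 and 17.3 normalized counts, and between 0 and 84 at week 18. None of the 6 had groups without overlap, all 6 had a log2 difference above 0, and 0 of the 6 passed DESeq2 or limma. Myh7 was highest in replicates 2 and 3 of week 18, with 30.6 and 84, and had 0 in replicate 1.

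Mstn encodes myostatin, the secreted inhibitor of muscle growth, and it was the member of its list with the largest difference. Its normalized counts were 411, 314 and 366 at week 12 and 0, 13.8 and 6.76 at week 18, without overlap (log2 difference -6.22, standard error 1.01, limma adjusted p = 0.398, DESeq2 adjusted p = 4.91e-13). Myod1, a factor that commits cells to the muscle lineage, had 25.6, 9.19 and 32.8 at week 12 and 0, 1.97 and 0 at week 18 (DESeq2 adjusted p = 0.0275). Trim63, the ubiquitin ligase MuRF1 of muscle atrophy, had 236, 145 and 203 against 8.46, 49.3 and 11.6. Fbxo32, the other atrophy ligase, was expressed broadly and overlapped, with 6615, 4336 and 5976 at week 12 and 3374, 3985 and 4961 at week 18. These genes belong to a list that mixes myogenic factors with myostatin and atrophy ligases. Of its 8 genes tested, 7 were without overlap downward, against 5.87% of all genes. DESeq2 called 3 of the 8 lower, namely Mstn, Myod1 and Trim63, against 0.812% of all genes. The median log2 difference of the 8 was -2.84.

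By the rule for named genes, where fewer than 5 genes pass limma, the 12 lower genes with the smallest unadjusted p were Trim72, Itgb1bp2, Rbm24, Akap6, Slc8a3, Lrrc39, Aqp4, Crhr2, Jph1, Tmod1, Ampd1 and Jsrp1, none of which passed limma. All 12 were called by DESeq2. Trim72, a membrane repair protein of striated muscle at chr7:128003462-128011393, had 417, 302 and 364 at week 12 and 61.1, 66 and 67.6 at week 18. Its log2 difference was -2.45 with a standard error of 0.17 (limma adjusted p = 0.117, DESeq2 adjusted p = 7.05e-21). Itgb1bp2, or melusin, which binds integrins in muscle, had 124, 65.3 and 80.1 against 9.4, 7.89 and 7.72. Tmod1 caps the pointed ends of actin filaments, and it had 292, 184 and 254 against 27.2, 65.1 and 44.4. Rbm24, a splicing factor of muscle, had 130.2, 90.9 and 119 against 23.5, 28.6 and 27. Aqp4, a water channel of fast fibres and brain, and Crhr2, a receptor for urocortins, had log2 differences of -3.86 and -3.94. Akap6, an anchor for protein kinase A, and Lrrc39, a sarcomere protein, had -1.61 and -1.77.

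**Figure D1:**
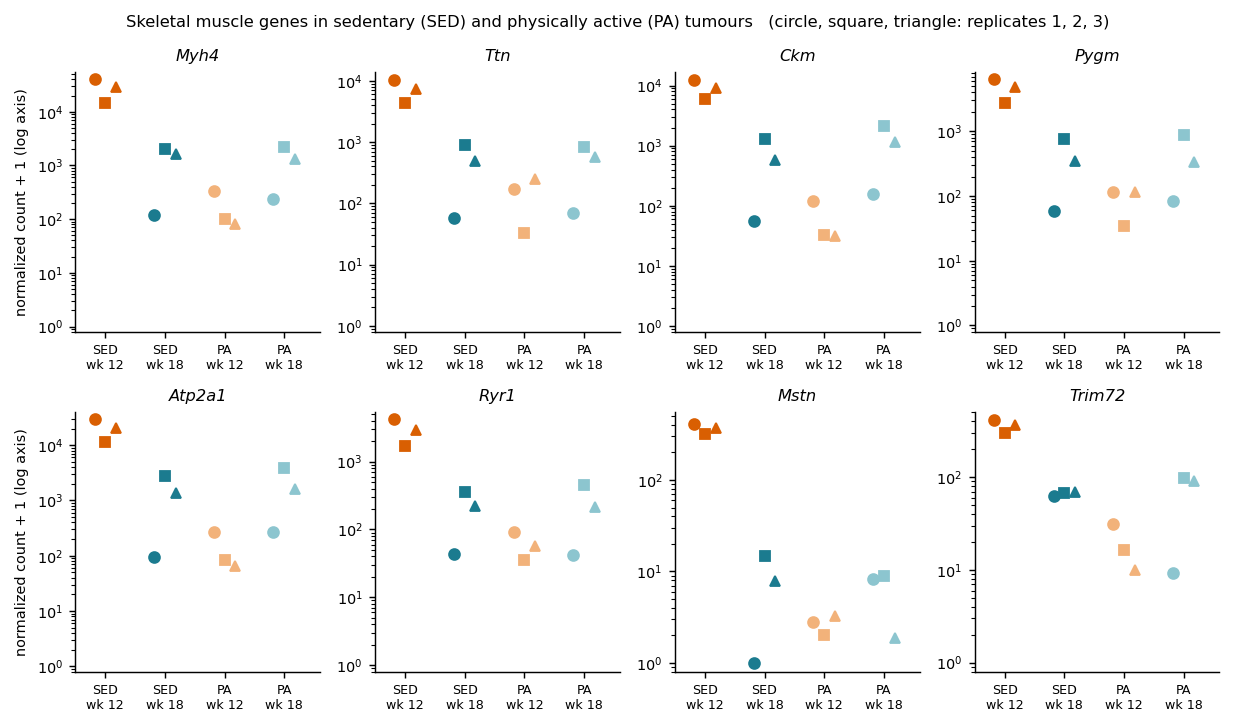
Normalized counts plus 1 on a log axis for 8 muscle genes, in sedentary (SED) and physically active (PA) tumours at weeks 12 and 18, 1 symbol per replicate. For Myh4 the sedentary week 12 tumours lie between 14812 and 40372 and the sedentary week 18 tumours between 120.3 and 2033; for Trim72 the sedentary week 18 tumours lie between 61.1 and 67.6.

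The libraries kept nearly the same order across the muscle list. Replicate 1 of week 12 was the highest of the 6 libraries in 22 of the 22 genes, replicate 2 the lowest of week 12 in 22, and replicate 1 of week 18 the lowest of all in 22. Replicate 2 of week 18 was the highest of its week in 21. Reads of the 22 genes made up 0.765% (95% Clopper-Pearson interval 0.761 to 0.769), 0.368% and 0.563% of the recovered reads at week 12. At week 18 they made up 0.00314%, 0.0799% and 0.0364%. Such intervals cover counting error only. Without replicate 1 of week 18 the list's median was -3.31; over the 6 fits that each leave out 1 library it ranged from -5.69 to -3.31. Of the 154 genes that DESeq2 called lower, 17 were in the 2 muscle lists, and all 154 were without overlap. For 113 of them replicate 1 of week 12 was the highest library of its week, and for 124 replicate 1 of week 18 was the lowest of its week. Without replicate 1 of week 12 DESeq2 called 65 genes lower, 60 of them among the 154. Without replicate 2 of week 18 it called 301, 142 of them among the 154, and without replicate 3 of week 12 or replicate 3 of week 18 it called 87 and 103.

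Outside the muscle lists, 3 list genes were called lower by DESeq2, namely Thbs1, H19 and Des, the intermediate filament desmin of muscle cells. Thbs1, thrombospondin, a matrix protein that restrains vessel growth, had 12994, 15788 and 13314 at week 12 and 9023, 10450.4 and 9351 at week 18 (log2 difference -0.54, DESeq2 adjusted p = 0.04). H19, an imprinted noncoding RNA at chr7:142575530-142578146, had 1819, 2341 and 1597 against 1257, 886 and 1056 (DESeq2 adjusted p = 0.0445). Igf2, the imprinted growth factor beside it at chr7:142650768-142666816, had 46.5, 52.1 and 45.5 against 2.82, 14.8 and 15.4, without overlap and not called by DESeq2 (adjusted p = 0.089). Chosen after their values were seen, Acsl4, a long-chain fatty acid ligase, and Hoxa7, a positional homeobox factor, had log2 differences of -0.58 and -2.16.

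DESeq2 called 18 genes higher at week 18, and 0 of them belong to any of the 47 lists. The lists hold only 861 of the 18968 genes tested, so few of any 18 genes would fall in them. The 12 higher genes with the smallest unadjusted p under the naming rule were Gsg1l, Spdef, Mpped2, Gne, Lrrc26, Myb, Ncmap, Krt7, Kcnn4, Tbc1d30, Slc31a2 and Mab21l3. None passed limma and 10 of the 12 were called by DESeq2, the exceptions being Ncmap and Mab21l3 (adjusted p = 0.0888 and 0.76). Spdef, an ETS factor of secretory and luminal epithelium at chr17:27714446-27731003, had 273, 319.6 and 536 at week 12 and 989, 1061 and 982 at week 18. Every week 18 tumour was above every week 12 tumour, and the mean went from 376 ± 140.3 to 1011 ± 43.5 (SD, n = 3 each), a ratio of 2.69. The log2 difference was 1.48 with a standard error of 0.28 (limma adjusted p = 0.469, DESeq2 adjusted p = 0.000635).

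Gne, the first enzyme of sialic acid synthesis, had 2029, 2649 and 3004 at week 12 and 7659.5, 5009 and 5229.6 at week 18. Replicate 1 was the highest of week 18, and without it the log2 difference was 1.02 in place of 1.21. Krt7, a keratin of glandular epithelium, had 2339.8, 2329 and 2599.6 against 3647, 3342 and 3698. Kcnn4, a calcium-activated potassium channel of secretory epithelium, had 9308, 8888 and 9474 against 13569, 12498 and 14425. Replicates of each week lay close together for both, with ratios of 1.47 and 1.46 between the means. Myb, a transcription factor of progenitor cells and of oestrogen-responsive luminal cells, had 172, 156 and 157 against 264, 405 and 267. Lrrc26, a potassium channel subunit of secretory glands, had 391.9, 198 and 243 against 776, 559 and 671.

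The remaining named genes were spread over other roles. Gsg1l, an auxiliary subunit of glutamate receptors, had 41.9, 43.9 and 58.3 at week 12 and 216, 187 and 114 at week 18, and at 1.79 its log2 difference was the largest of the 12. Slc31a2, a copper transporter, had 1582, 1449.8 and 1880.5 against 2676, 3145 and 2304. Mpped2, Tbc1d30, Ncmap and Mab21l3 had log2 differences of 0.75, 0.63, 0.87 and 0.84, all without overlap.

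**Figure D2:**
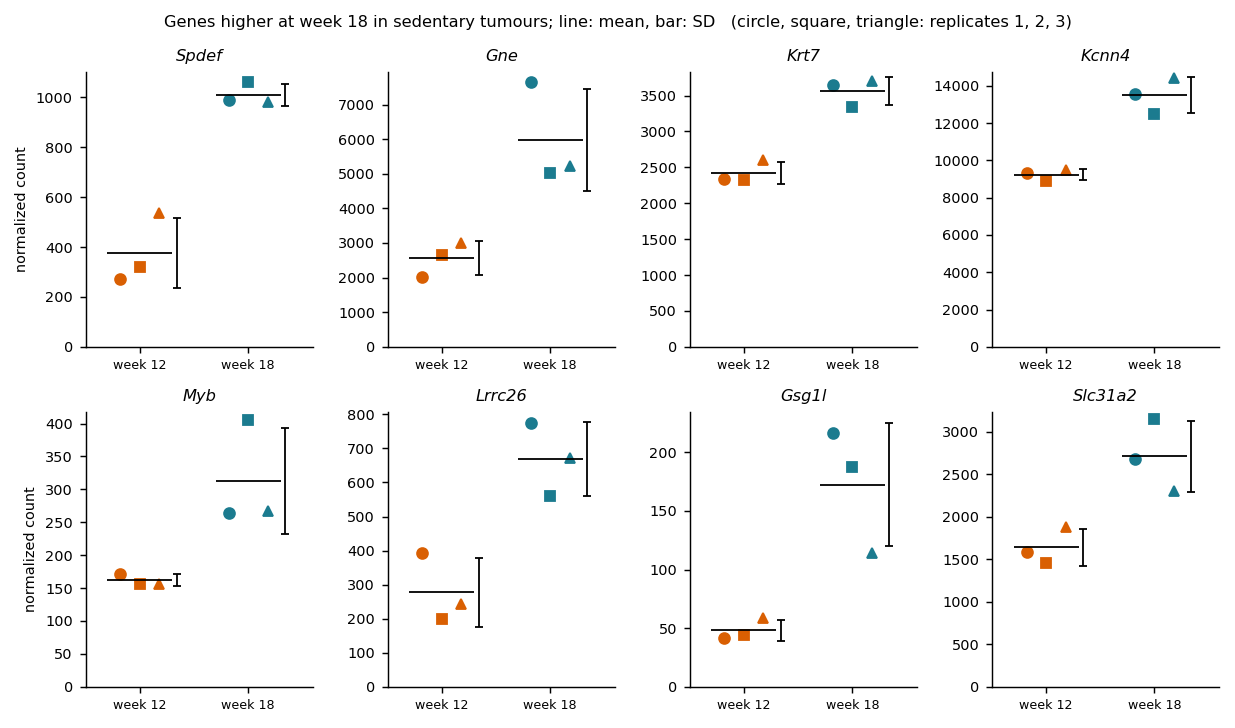
Normalized counts of 8 genes in the 6 sedentary tumours, 1 symbol per replicate, with the mean (line) and SD (bar) of each week. All 3 week 18 values lie above all 3 week 12 values in each panel; for Spdef they lie between 982 and 1061, against 273 to 536.

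Other genes that DESeq2 called higher were chosen after their values were seen, and several rested on few tumours. Mup5, a major urinary protein, had 5.81, 24.5 and 17.3 at week 12 and 1244, 1269 and 37.7 at week 18, so that replicates 1 and 2 carry the difference. Scgb2b27, a secretoglobin, had 1478, 4222 and 1755 against 11206, 15119 and 4571. Both belong to families of near-identical copies among which reads may be split, and their values are uncertain. Oit1 had 273 in replicate 1 of week 18 and 39.4 and 27 in the others, against 4.65 to 12.3 at week 12. Gpr37l1, an orphan receptor, had 141, 123 and 5.79 at week 18 against 3.49, 6.13 and 6.37, and its groups overlapped. Ets2, an ETS factor downstream of Ras signalling, had a small and even difference, with 3900.3, 3683 and 3787 at week 12 and 4855, 4910.3 and 4929 at week 18 (DESeq2 adjusted p = 0.0122). Bhlha15, or MIST1, a factor of secretory cells, missed the threshold at an adjusted p of 0.0622 with DESeq2, with 2183, 3366 and 2885 against 8719, 4686 and 4921. The fits that each leave out 1 library called 14 to 53 genes higher, the most without replicate 2 of week 18. Of the 18 genes DESeq2 called higher, 7 to 12 were called again in the 6 fits that each leave out 1 library.

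The epithelial lists had smaller differences than the muscle lists. Of 20 luminal markers tested, 13 were higher and 7 lower at week 18, with a median log2 difference of 0.12. Of the 20, 2 were without overlap upward, against 4.68% of all genes. Without replicate 1 of week 18 the luminal median was 0.21, and 1 of the 20 was lower. Then 8 of the 20 were without overlap upward, against 1645 of all 18968 genes tested. Basal and myoepithelial markers had a median of 0.15, or 0.015 without that library, with none of 16 without overlap. Milk protein genes had a median of -0.55, or 0.08 without replicate 1 of week 18, and Csn3, kappa casein, had 231886, 128727 and 187982 at week 12 and 4815, 167930.0 and 235602 at week 18. That library alone separated the weeks for Csn3, since its other week 18 values were within the week 12 range or above it. Proliferation genes had a median of 0.20, or -0.021 without replicate 1 of week 18, and no gene without overlap among 30, and Mki67, which marks cycling cells, had 7847, 5273 and 4777 against 9165, 5002 and 6406.

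Adipocyte genes had log2 differences below 0 in 18 of 18, and replicate 1 of that week was the lowest library for 18 of the 18. Their median log2 difference was -1.80, and 7 of 18 were without overlap, against 5.87% of all genes, while 0 were called by DESeq2 and 0 had an unadjusted limma p under 0.05. Car3, an abundant carbonic anhydrase of fat cells, had 17885, 14989 and 19792 at week 12 and 474, 10243 and 6911 at week 18. Lep, the fat hormone leptin, had 234, 186 and 350.4 against 13.2, 159.7 and 124. Without replicate 1 of week 18 the median was -0.57.

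Interferon-stimulated genes, which respond to type I and type II interferon, had a median log2 difference of -0.89, with 32 of 32 below 0. Of the 32, 10 were without overlap downward, against 5.87% of all genes. The lowest library was again replicate 1 of week 18, in 32 of 32. Isg15, a ubiquitin-like antiviral protein, had 1773, 1179 and 1242 at week 12 and 283, 940.5 and 723 at week 18. Oasl2, an oligoadenylate synthetase relative, had 4878, 3981 and 5537 against 900.1, 3814 and 2935. Isg15 was the only member with an unadjusted limma p under 0.05, and DESeq2 called 0 of the 32. Without replicate 1 of week 18 the median was -0.29.

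Of 17 B and plasma cell genes, 14 had log2 differences below 0, with a median of -0.66. Of the 17, 5 were without overlap downward, against 5.87% of all genes. With an unadjusted limma p under 0.05, 6 were lower, against 3.67% of all genes. Ighd, the delta heavy chain of naive B cells, had 33.7, 28.6 and 24.6 at week 12 and 9.4, 0.986 and 3.86 at week 18. It was lowest in replicates 2 and 3 of week 18, not in replicate 1. Of 10 lymph node stroma and follicle genes tested, 10 had log2 differences below 0. Their median was -1.04, or -0.65 without replicate 1 of week 18. Of the 10, 2 were without overlap downward, against 5.87% of all genes. With an unadjusted limma p under 0.05, 3 were lower, against 3.67% of all genes. Cr2, a complement receptor in this list, was without overlap, with a log2 difference of -2.04. DESeq2 and limma called 0 genes of either list. Jchain, the joining chain of secreted antibodies, overlapped, with 111 in replicate 2 of week 18 and a log2 difference of 0.015. T cell, macrophage and dendritic cell lists had medians of -0.38, -0.24 and -0.16. These medians were -0.12, 0.21 and 0.15 without replicate 1 of week 18. With all 6 libraries, 0 of 22, 2 of 22 and 0 of 12 genes were without overlap. The 2 macrophage genes were lower, and their share is near that of all genes, 5.87% downward and 10.5% either way.

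Of the endothelial genes, 17 of 19 had log2 differences below 0. Pecam1, an adhesion molecule of vessel walls, had 1098, 1075 and 1079.5 at week 12 and 692, 911 and 795 at week 18. Cdh5, the cadherin of endothelial junctions, had 1051, 896 and 937 against 765, 753 and 684, and Tek, the angiopoietin receptor, had a log2 difference of -0.65. Of 19 endothelial genes 4 were without overlap downward, against 5.87% of all genes. With an unadjusted limma p under 0.05, 3 of the 19 were lower, against 3.67% of all genes. The median of the list was -0.35. The endothelial median was -0.32 without replicate 1 of week 18. Of the Schwann cell genes, Prx, a protein of peripheral myelin, was lower without overlap with a log2 difference of -0.48, and Ncmap, another, was higher.

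Several lists changed sign with replicate 1 of week 18. Complement and acute phase genes had a median of -0.90 with it and 0.07 without it, mast cell genes -0.66 and 0.38, and MHC class II genes -0.40 and 0.30. In all, 16 of the 47 lists had a median of the other sign without that library. No gene was without overlap in the complement, mast cell or MHC class II list. Fibroblast genes had -0.42 and -0.08, with Dpt, a dermal matrix protein, at 58.3 in that library and between 1543 and 2676 in the other 5. Its ribosomal protein genes took 2.90% of its reads, the highest share of the 12 tumours, where the other 11 lay between 1.39% and 2.46%. The part of this library's makeup in these differences was not tested.

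**Figure D3:**
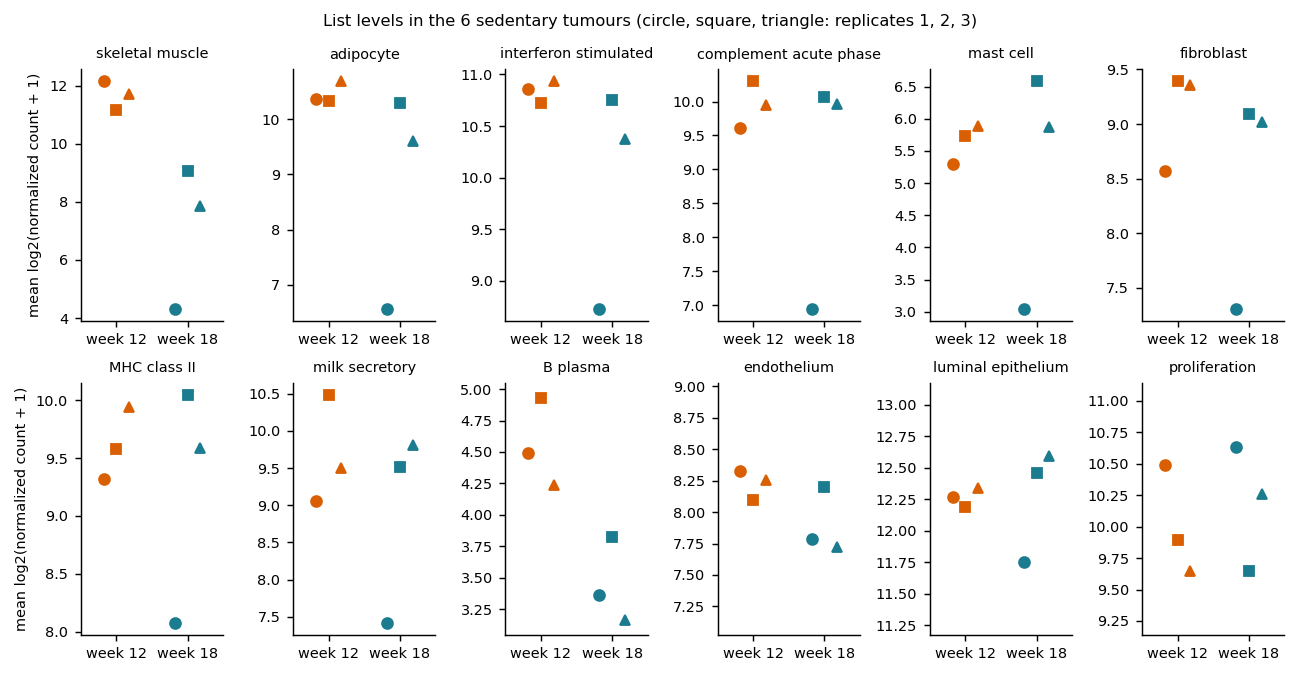
Mean log2(normalized count + 1) of 12 gene lists in each sedentary tumour, 1 symbol per replicate, on axes of at least 2 log2 units that do not start at 0. Replicate 1 of week 18 (circle) is far below the other libraries for the adipocyte, interferon and complement lists, at 6.55, 8.72 and 6.94.

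Hypoxia and glycolysis genes had a median of -0.31, with 28 of 33 below 0. Of the 33, 4 were without overlap downward, against 5.87% of all genes. Over the fits that each leave out 1 library the hypoxia median ranged from -0.51 to 0.0064. Their reads made up 1.40% of replicate 1 of week 12, against 0.77% and 0.82% in replicates 2 and 3. Bnip3, a mitophagy receptor, had a log2 difference of -0.75 and Slc16a3, a lactate exporter, of -1.95. Respiratory chain genes had a median of 0.10, with 33 of 36 above 0. Of the 36, 5 were without overlap upward, against 4.68% of all genes. Without replicate 1 of week 18 the respiratory median was 0.033, and 14 of the 36 were below 0. Atp5a1, a subunit of ATP synthase, had 20104, 20225 and 20242 against 25972, 21408 and 22335. Fatty acid synthesis genes had -0.21, and Mlxipl, the carbohydrate-sensing factor ChREBP, had 447, 299 and 406 against 208, 252 and 156. Sterol synthesis, circadian clock and glucocorticoid response lists had medians of -0.12, -0.0037 and 0.06. None of these lists held a gene called by DESeq2.

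**Figure D4:**
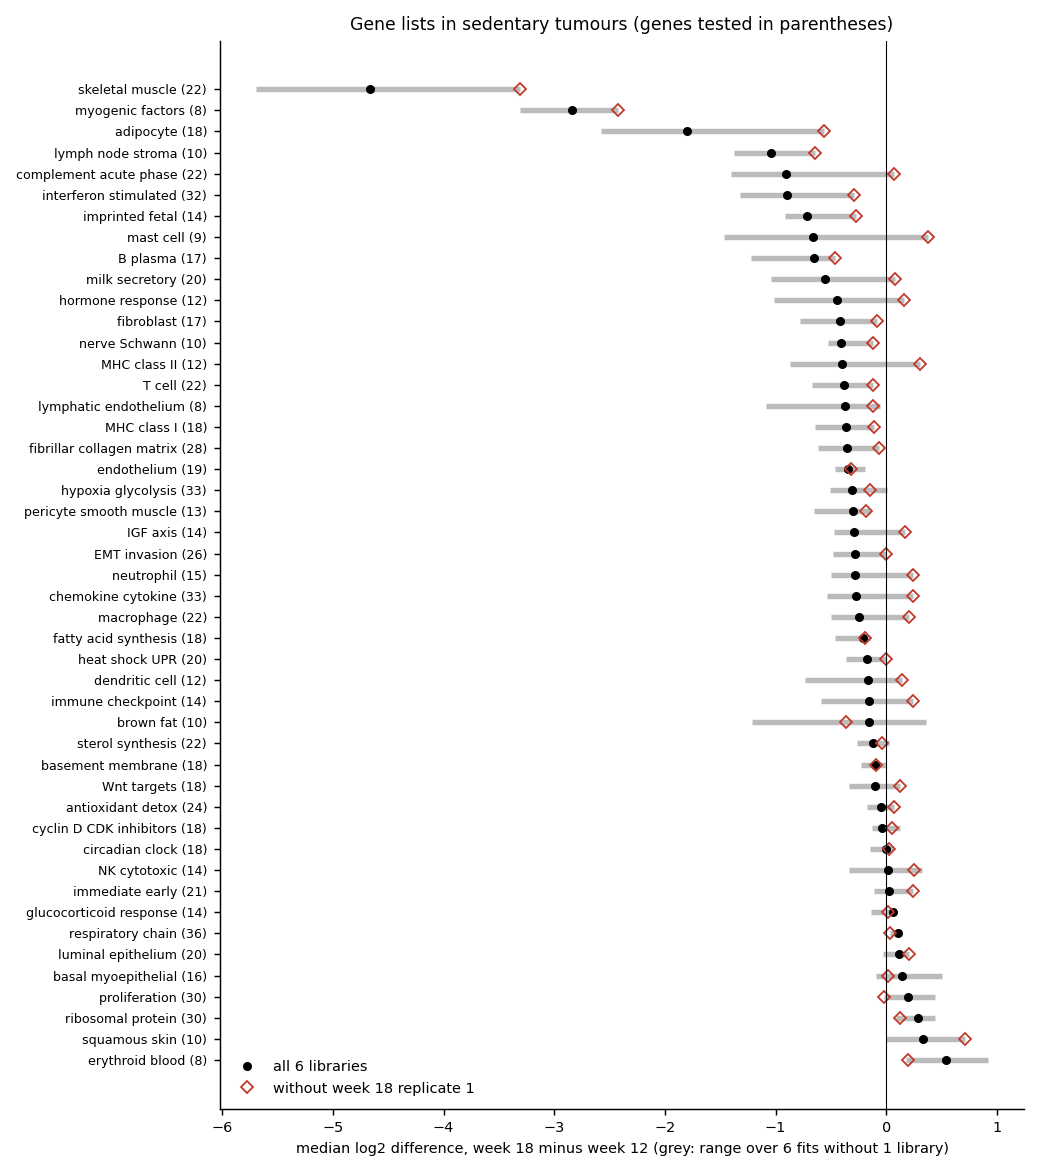
Median log2 difference, week 18 minus week 12, of the 47 gene lists with all 6 libraries (dots) and without replicate 1 of week 18 (diamonds), with the range over the 6 fits that leave out 1 library (grey). The skeletal muscle list lies farthest from 0, at -4.67 and -3.31, and complement genes move from -0.90 to 0.07.

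Active tumours of the same weeks gave other values for the muscle genes. Scaled over all 12 tumours, the 3 sedentary week 12 tumours were above all 9 other tumours in 22 of the 22 muscle genes, against 1.3% of all genes tested. Myh4 had 334, 98.9 and 79.2 in active tumours at week 12 and 240.3, 2202 and 1323 at week 18. The values of active week 12 and sedentary week 18 tumours overlapped in 22 of 22. In the active tumours alone 22 of the 22 muscle genes had a positive log2 difference between the weeks, with a median of 3.42. Of these, 13 were without overlap, and the share of all genes without overlap in active tumours is not given here. Of 19188 genes tested there, 47.7% had a positive log2 difference and 52.3% a negative one, and limma called 0 (0.0%), with 2317 at an unadjusted p under 0.05 (12.1%). The difference between the week effects, active minus sedentary, was tested as an interaction over the 12 tumours: 22 of the 22 muscle genes had an unadjusted p under 0.05, against 6.33% of the 19241 genes and 2.79% counting only those with a larger upward difference in active tumours, and 0 passed limma after adjustment. Over all genes 2 passed (0.0104%), Isl1, a LIM homeobox factor, and the unnamed transcript Gm16534. For Myh4 the interaction was 7.80 with a standard error of 1.66 (limma adjusted p = 0.281). Of the 153 genes called lower by DESeq2 that could be tested in active tumours, 121 had a positive log2 difference there.

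Of the 12 named higher genes, 11 had values that overlapped between the weeks in active tumours, Krt7 being the exception. The share of all genes that overlapped there is not given here, so the 11 cannot be set against it. Of the 18 genes that DESeq2 called higher, 14 had a positive log2 difference in active tumours, against 47.7% of all genes tested there. Spdef had 1142, 734 and 348 at week 12 and 306, 1597 and 923 at week 18 in active tumours, an interaction of -1.26 with a standard error of 0.85 (limma adjusted p = 0.77). For 8 of the 12 the active week 12 range reached the sedentary week 18 range. Adipocyte genes had a median log2 difference of -4.88 in active tumours, where replicate 3 of week 12 was the highest active library for Car3, with 183886. H19 was higher at week 18 in active tumours, with 407, 737 and 316 against 4440.2, 1487 and 1976, an interaction of 3.22 with a standard error of 0.60 (limma adjusted p = 0.208).

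**Figure D5:**
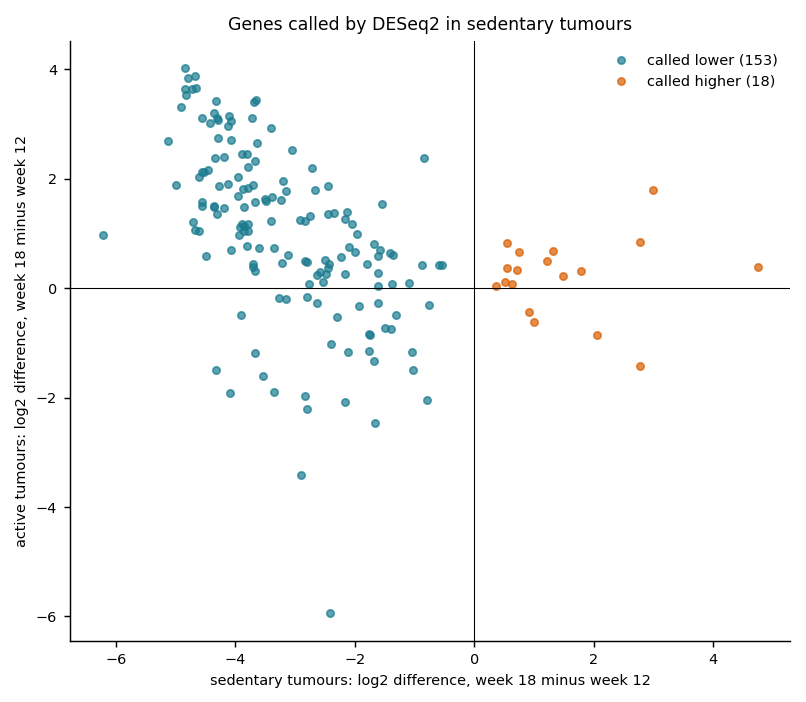
Log2 difference, week 18 minus week 12, in active tumours (vertical axis) against sedentary tumours (horizontal axis) for the genes that DESeq2 called in sedentary tumours. Of 153 genes called lower that were tested in active tumours, 121 lie above 0 on the vertical axis, and of the 18 called higher 14 do.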

How the data were processed

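RNA of mammary tumours was sequenced as polyadenylated, stranded libraries, per the labels' protocols. The deposited signal values are read counts per gene that the authors divided by a size factor per library, in a separate table for each week; the labels name DEBrowser, and the submitters' processing notes name mm10. Aligner and counter are not given in the sources used here. Each value was a whole number of reads times a constant of its column, within a tolerance of 0.01, for 100% of values, and reads were recovered by dividing by it. For replicate 3 of sedentary week 18 that constant is so close to 1 that this check has little force. The values were rescaled over the 6 sedentary libraries (over 12 tumours where active ones enter) by median of ratios. Genes whose weekly mean reached 1 at week 12 or week 18 were tested with limma 3.58.1 in R 4.3.3 on log2(value + 1), with Benjamini-Hochberg adjustment and a threshold of 0.05. edgeR 4.0.16 and DESeq2 1.42.0 were run on the recovered reads as alternatives, beside other scalings, filters, pseudocounts, a replicate block and fits without each library. The scripts were tested on simulated data. The comparison, members and gene lists were chosen with earlier results of these data known. Genes were named by rule: up to 12 per direction past limma with the largest difference, or, where fewer than 5 passed, with the smallest unadjusted p, without overlap, a mean of at least 50 and no provisional symbol; and per list the 3 highest members and the 3 with the smallest p. Some named genes are not reported here.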

Additional observations from a re-analysis of the deposited data

Results flagged for a closer look

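For 2 genes the difference between weeks was not the same in active and sedentary tumours by limma's interaction test over 12 tumours. Isl1, a LIM homeobox factor, had 16.3, 14.3 and 11.8 normalized counts in sedentary tumours at week 12, 0, 0.986 and 0 at week 18, and 0 in all 6 active tumours, an interaction of 3.61 on the log2 scale (limma adjusted p = 0.0392). Gm16534 had 10.5, 11.2 and 10.01 against 15.0, 15.8 and 18.3 in sedentary tumours and 30.1, 21.6 and 34.6 against 6.24, 6.12 and 8.02 in active tumours, an interaction of -2.49 with a standard error of 0.27 (limma adjusted p = 0.0392). edgeR called 0 genes for this interaction.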

How the results depend on the processing

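limma called 0 genes in either direction with all 6 libraries. A pseudocount of 0.1 gave 2 higher and 7 lower, the fit over 12 tumours 1 lower, and leaving out each library in turn 0 to 2 higher and 0 to 10 lower, the most without replicate 1 (higher) and replicate 2 (lower) of week 18. DESeq2 called 18 higher and 154 lower; without replicates 1, 2 and 3 of week 12 it called 14, 24 and 18 higher and 65, 113 and 87 lower, and without those of week 18 it called 22, 53 and 26 higher and 173, 301 and 103 lower. Of list genes, limma called 0 and DESeq2 20, and without the same 6 libraries in turn 8, 18, 15, 30, 41 and 16. Deviations of same-numbered samples from their group means had correlations of 0.019, -0.031 and 0.082. Those of differently numbered samples ran from -0.18 to 0.15, so with 3 samples per week these values cannot decide whether the numbers pair samples. With the replicate block limma called 0 genes and DESeq2 19 higher, 145 lower and 16 list genes. The interaction had 2 genes, 0 with edgeR, 0 with the replicate block, and 0 to 23 without each library, the most without replicate 1 of active week 18. Directions of 6 genes that passed no test turned. Tnnt1 ranged from -0.41 to 0.67 without each library, Tnni1 from -0.011 to 1.48 and Tnnc1 from -0.35 to 1.48, Krt8 from -0.053 to 0.58, Csn3 from -2.64 to 0.17 and Mki67 from -0.039 to 0.40. In DESeq2 Tnnt1 had -0.26 and -0.29 without replicate 1 of week 12 and replicate 2 of week 18, and Tnnc1 had -0.21 and -0.55 without replicate 1 of week 12 and replicate 3 of week 18. Krt8 had -0.048 without replicate 3 of week 18, and Csn3 and Mki67 had 0.14 and -0.063 without replicate 1 of week 18. The cause was not tested.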
